A study of Drosophila melanogaster with 4 samples.

Results

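The cuticle protein genes of chromosome arms 2L and 3R of Drosophila melanogaster were examined for H3K4me1, the single methyl mark on lysine 4 of histone H3. They were taken as all genes on these arms whose FlyBase symbol starts with Cpr and a digit, with Ccp84A, or with Twdl. This gave 38 genes, 6 on 2L and 32 on 3R, out of 7702 genes of both arms that could be placed on the genome release of the region lists. The annotation gives 37 of them as protein-coding and TwdlU as a pseudogene. The rule used gene names and positions and no measured value, but it was chosen with earlier results of these data known.

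The mark was profiled by ChIP-seq, the sequencing of chromatin precipitated with an antibody, in whole wild-type embryos of the strain Oregon-R. The embryos were 14 to 16 h old and fixed with formaldehyde. The antibody was ab8895, in a batch labelled new lot 2. There was 1 group of 2 ChIP libraries, called replicate 1 and replicate 2, and no treatment or mutant. There were also 2 input libraries, whose values were not analysed here. Whether the replicates had separate embryo collections behind them is not in the labels, and their spread may be technical. The authors deposited a list of regions of significant enrichment for each ChIP library, with 7601 and 7401 regions, and a combined list of 8219 regions over both. On 2L and 3R the lists held 3086, 2997 and 3304 regions, which covered 29.7%, 27.5% and 33.6% of these arms. The read depth is unknown.

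The insect cuticle is built by the epidermis from chitin fibres and proteins, and the larval cuticle is laid down late in embryogenesis. Proteins of the CPR family, which include the Cpr and Ccp84A genes, carry a chitin-binding motif named after Rebers and Riddiford. Tweedle proteins (Twdl) form a separate insect family of cuticle proteins, and a dominant mutation of one member shortens the larva and pupa. H3K4me1 is found at enhancers and beside active promoters. Many cuticle protein genes are short and lie in tandem arrays, and different genes are used in different stages and body parts.

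Few of the cuticle protein genes had an H3K4me1 region. A gene was counted as marked when at least 1 bp of a region fell within its annotated span or the 2 kb on either side. In the combined list 8 of the 38 were marked (21.1%), against 71.7% of all genes on the arms. Replicate 1 marked 7 (18.4%), against 68.7% of all genes, and replicate 2 marked 6 (15.8%), against 66.5%. The same 6 genes were marked in all 3 lists, and 30 were marked in none. Cuticle protein genes are short, with a median of 1100 bp and a range of 638 to 4649 bp, against a median of 1668 bp over all genes. Other genes of these arms were therefore weighted so that their lengths were spread over 10 length classes as those of the 38. Of these length-matched genes 66.5% were marked in the combined list, 63.7% in replicate 1 and 61.7% in replicate 2. Over the replicate lists the marked share was 17.1% ± 1.86 for the cuticle protein genes and 62.7% ± 1.42 for length-matched genes (SD, n = 2). This SD covers the spread between the libraries over the same genes, not how much such a share varies between sets of genes. No test was made of the difference, since genes in tandem arrays share their surroundings and are not replicates. In whole embryos, a mark carried by few cells and a weak mark carried by many cannot be told apart. A gene without a region need not lack H3K4me1, and how much of each window can be mapped uniquely was not computed.

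The covered length gave the same order. Regions covered on average 7.70% of the window of a cuticle protein gene (span plus 2 kb on each side) in the combined list, against 46.5% for length-matched genes. Over the replicate lists the mean was 5.19% ± 1.22, against 42.6% ± 1.06 (SD, n = 2). The median cuticle protein gene had 0% of its window covered in each list. Regions that covered 50% of the window or more were found at 2 of the 38 genes in the combined list (46.9% of all genes), at 2 in replicate 1 (43.2%) and at 1 in replicate 2 (40.9%).

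Distance to the nearest region was also large. The median cuticle protein gene lay 8.48 kb from the nearest combined region, 10.5 kb from the nearest region of replicate 1 and 10.4 kb from that of replicate 2. The median was 0 kb both for all genes and for length-matched genes, since more than 50% of them had a region over the gene itself. A region over the gene was found at 3 cuticle protein genes in the combined list and in replicate 1, and at 2 in replicate 2, against 61.7%, 58.7% and 56.6% of all genes. With 5 kb on each side 15, 14 and 12 genes were marked, against 78.9%, 76.2% and 73.6% of all genes. At 10 kb the counts were 20, 18 and 18, against 85.1%, 82.8% and 80.8%. At 20 kb they were 25, 25 and 24, against 90.4%, 88.4% and 87.2%. Of length-matched genes 82.1% had a combined region within 10 kb and 88.3% within 20 kb.

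**Figure D1:**
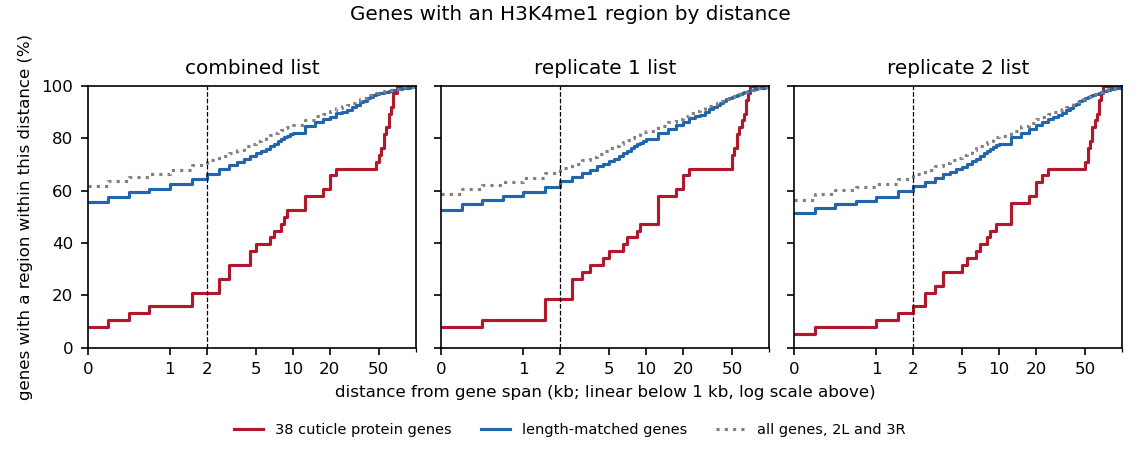
Share of genes (y axis, %) with an H3K4me1 region within a given distance of the gene span (x axis, kb, linear below 1 kb and logarithmic above), for the 38 cuticle protein genes, length-matched genes and all genes of 2L and 3R, in each of the 3 lists. The dashed line marks 2 kb, where 21.1% of the cuticle protein genes and 66.5% of length-matched genes had a combined region, and the curve of the cuticle protein genes stays below the others until beyond 50 kb.

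The marked genes were first described one by one. TwdlU, the pseudogene, lies at the start of a run of 4 Tweedle genes near the centromere end of 3R and had a region over it in each list. The combined region, at chr3R:66835-71079 on release 5, was 4245 bp wide with a score of 0.66 and covered 91.9% of the gene. Scores are the authors' own, are on a log2 scale and can be compared only within a list. The median score on 2L and 3R was 0.63 in the combined list, 0.78 in replicate 1 and 0.81 in replicate 2. Replicate 1 had a region over 75.9% of TwdlU, with a score of 0.69, and replicate 2 over 25.4%, with a score of 0.84. The covered share of its window was 58.3% in replicate 1 and 42.1% in replicate 2. No other cuticle protein gene had as much of its body inside a combined region.

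TwdlG (CG14643) follows TwdlU and TwdlF in that run and was the other Tweedle gene with a region over it in all lists. The combined region at chr3R:75485-77713 covered 60.3% of the gene with a score of 0.46. The region of replicate 1 covered 61.1% with a score of 0.65 and that of replicate 2 covered 45.7% with a score of 0.46. Its window was covered to 34.0% in replicate 1 and 23.3% in replicate 2. A coding gene outside the naming rule, CG14644, lies between TwdlG and TwdlV and overlaps the combined region too.

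TwdlF (CG14639) sits between TwdlU and TwdlG and had no region over its body. The nearest edge, each time that of the region over TwdlG, was 1450 bp away in the combined list. It was 1430 bp away in replicate 1 and 1831 bp away in replicate 2. Its window was covered to 11.4% in replicate 1 and 3.21% in replicate 2. TwdlV, the last gene of the run, lay 2717 bp, 2716 bp and 3023 bp from the nearest region and was not marked. In this run of 12.2 kb the regions thus stood over TwdlU and TwdlG, with TwdlF and TwdlV outside them. The region over TwdlU also overlapped the coding genes CG34305 and CG14642, outside the naming rule, in each list. In the combined list 1752 of its 4245 bp lay on TwdlU, and in replicate 2 this was 484 of 2823 bp.

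Cpr31A (CG33302) on 2L had the most covered window of all, at 75.4% in the combined list. The value was 69.6% in replicate 1 and 61.9% in replicate 2. It lies between a pair of regions. On the lower-coordinate side, the combined region at chr2L:10052161-10054667 had a score of 0.48 and reached over 26.4% of the gene. That of replicate 1 reached over 31.6%, with a score of 0.56, while that of replicate 2, also 0.56, ended 187 bp short of it. On the higher-coordinate side, the region at chr2L:10056077-10061198 began 142 bp past the gene and had a score of 1.27, higher than 93.1% of the combined regions on these arms. Its counterparts scored 1.33 in replicate 1 and 1.55 in replicate 2. The nearest coding gene on that side was Pen, an importin alpha gene that starts 965 bp away and has a region over it in all lists.

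TwdlE, Cpr100A, TwdlW and Cpr35B were marked only in the flanks. TwdlE (CG14534) on 2L lay 1040 bp from a combined region at chr2L:7854272-7856917 with a score of 0.36, 1268 bp from one of replicate 1 (0.50) and 1003 bp from one of replicate 2 (0.51). Its window was covered to 10.6% and 14.5% in the replicates. Cpr100A (CG12045), near the far end of 3R, lay 702 bp from the combined region at chr3R:26689645-26692541 with a score of 0.50. The distance was 1208 bp in replicate 1, with a score of 0.56, and 885 bp in replicate 2, with a score of 0.62. All these scores were below the median of their own list.

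The calls of TwdlW and Cpr35B differed between lists. TwdlW (CG4060) on 3R had a region 268 bp away in the combined list, at chr3R:12968394-12970386 with a score of 0.34, and 334 bp away in replicate 1, with a score of 0.43. In replicate 2 the nearest region was 5239 bp away. Cpr35B (CG3474) on 2L had a pair of combined regions on its lower-coordinate side, at chr2L:14420585-14422515 (score 0.32) and chr2L:14422817-14424218 (0.28). The nearer ended 97 bp from the gene. The nearest regions of replicates 1 and 2 were 2024 bp and 2070 bp away, just past the 2 kb limit. Both overlapped the farther region of this pair, and the nearer had no counterpart in either replicate list. Of the combined regions on these arms, 11.3% and 5.39% scored lower than this pair, and 14.8% scored lower than the one beside TwdlW.

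**Figure D2:**
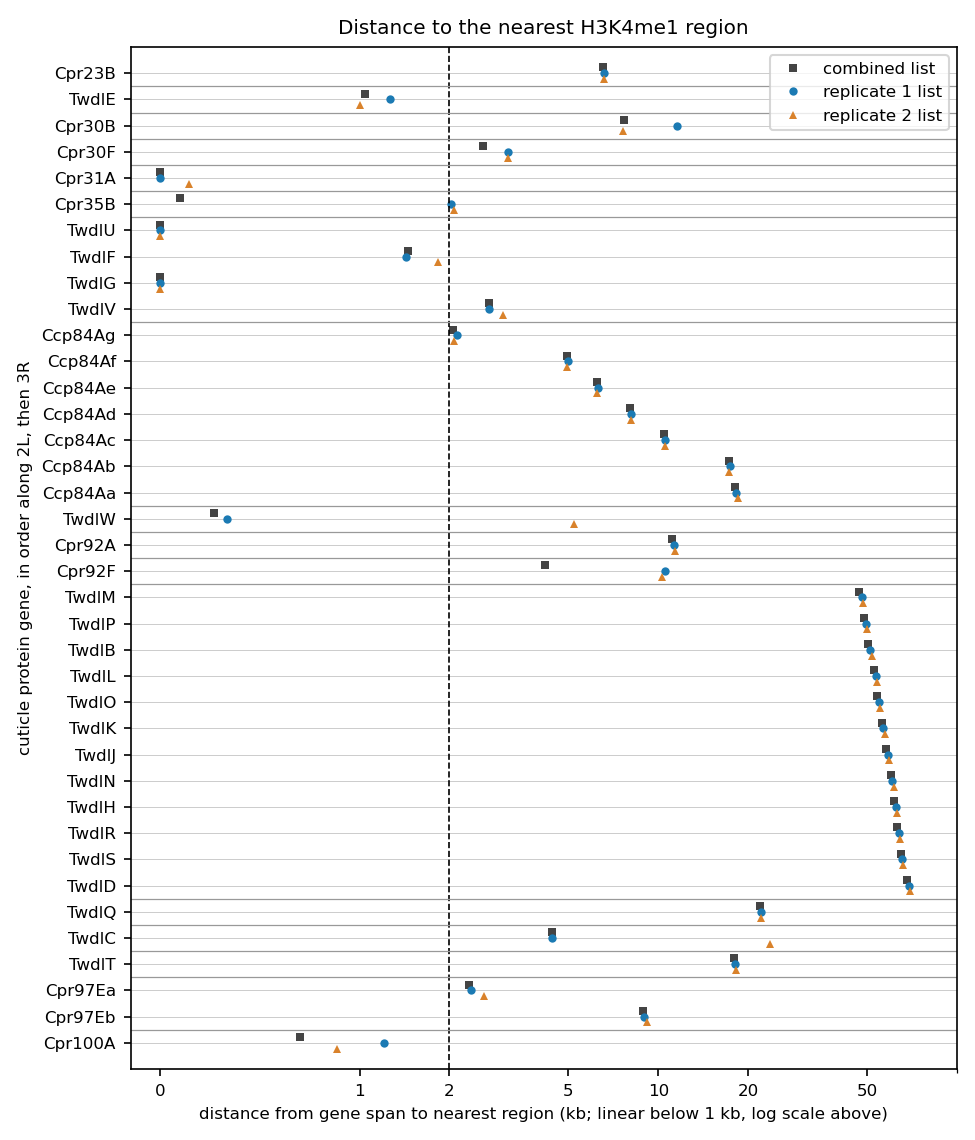
Distance from each of the 38 cuticle protein genes to the nearest H3K4me1 region (x axis, kb, linear below 1 kb and logarithmic above) in the combined, replicate 1 and replicate 2 lists, with genes in order along 2L and then 3R and grey lines between separate runs. The dashed line marks 2 kb. The symbols of the 3 lists stand apart at TwdlW, TwdlC, Cpr35B and Cpr92F among others, and the 12 genes from TwdlM to TwdlD lie 47.2 to 69.5 kb from any region.

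Regions in the windows of cuticle protein genes were mostly short and low-scoring. There were 9 distinct ones in the combined list, 7 in replicate 1 and 6 in replicate 2. Their median width was 2507 bp, 2244 bp and 2204 bp, against 3450 bp, 3448 bp and 3234 bp for all regions of the 2 arms. Their median score was 0.46, 0.56 and 0.59, against 0.63, 0.78 and 0.81. Scores below the arms' median were found for 7 of the 9, 6 of the 7 and 4 of the 6. The region beside Cpr31A was the highest-scoring in each list.

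By family, the Ccp84A genes stood at 0 of 7 marked in every list. Of the Cpr genes 3 of 10 were marked in the combined list and 2 of 10 in each replicate. Of the Twdl genes 5 of 21 were marked in the combined list, 5 in replicate 1 and 4 in replicate 2. Length-matched genes for the Cpr, Ccp84A and Twdl families were marked in 70.1%, 59.3% and 67.1% of cases in the combined list. These shares were 67.0%, 56.0% and 64.7% in replicate 1 and 64.8%, 54.0% and 62.8% in replicate 2. The median distance to the nearest combined region was 3.38 kb for Cpr genes, 8.06 kb for Ccp84A genes and 48.6 kb for Twdl genes. Distances within the Twdl family ran from 0 to 68.1 kb, and the family's median rested on a single run of 12 genes, TwdlM to TwdlD. The other 9 Twdl genes had a median of 1.45 kb in the combined list, 1.43 kb in replicate 1 and 3.02 kb in replicate 2. Each value was below the Cpr median of its list. The median gene was TwdlF in the combined list and replicate 1 and TwdlV in replicate 2. Both belong to the run from TwdlU to TwdlV, so these medians too rested on a single run. Of these 9 genes 5 (55.6%), 5 (55.6%) and 4 (44.4%) were marked, against 71.7%, 68.7% and 66.5% of all genes. The run of 4 genes from TwdlU to TwdlV gave 3 of the marked genes in each list. On 2L 3 of 6 genes were marked in the combined list and 2 of 6 in each replicate, against 67.2%, 64.0% and 61.6% of all genes of that arm. On 3R the counts were 5 of 32, 5 of 32 and 4 of 32, against 75.4%, 72.6% and 70.5%.

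Because neighbouring genes share regions, the genes were also grouped into runs, in which gaps between neighbours were at most 20 kb. There were 17 runs, 13 of them with a single gene. A marked gene was present in 6 of the 17 runs in the combined list (35.3%), in 5 in replicate 1 (29.4%) and in 4 in replicate 2 (23.5%). A run of several genes has several chances to hold a marked gene, so these shares cannot be set against those of single genes. Of the 13 genes that stood alone 5 (38.5%), 4 (30.8%) and 3 (23.1%) were marked, against 71.7%, 68.7% and 66.5% of all genes. Without the run of 12 genes 8 of 26 were marked in the combined list (30.8%), against 71.7% of all genes.

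The longest run held 12 Tweedle genes on 3R, namely TwdlM, TwdlP, TwdlB, TwdlL, TwdlO, TwdlK, TwdlJ, TwdlN, TwdlH, TwdlR, TwdlS and TwdlD, within 21.9 kb. None of the 12 was marked in any list. TwdlM was the nearest to a region, at 47.2 kb in the combined list, 48.0 kb in replicate 1 and 48.6 kb in replicate 2. TwdlD was the farthest, at 68.1 kb, 68.9 kb and 69.5 kb. These 12 were all of the cuticle protein genes with no region within 40 kb (31.6%), against 3.95% of all genes in the combined list, 5.87% in replicate 1 and 6.61% in replicate 2. The whole run lay in a stretch without regions at chr3R:22397687-22541179, a length of 143 kb. It ranked 23rd in length among 3302 such stretches between combined regions of the 2 arms, whose median was 3.09 kb. In replicate 1 the stretch measured 144 kb and in replicate 2 it measured 145 kb.

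That stretch held 16 protein-coding genes entirely, 13 of them cuticle protein genes of the naming rule. The thirteenth was TwdlQ, which stands apart from the run and lay 21.9 kb, 22.0 kb and 22.1 kb from the nearest region in the 3 lists. The other protein-coding genes were beat-VII, amon and Tb. Tb, or Tubby, is a Tweedle gene whose synonym in the annotation is TwdlA. It escaped the rule by its symbol and lay 57.9 kb from the nearest combined region. On the lower-coordinate side the stretch ended at a region of 2892 bp with a score of 0.38, and on the higher-coordinate side at one of 4398 bp with a score of 1.07. The nearest coding gene below the run was scrib, a cell polarity gene that had a region over it in each list. The gene amon, which encodes a proprotein convertase, lay 1.30 kb from the region on the other side.

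The Ccp84A genes formed the next largest run, with 7 genes in 18.2 kb on 3R. This array lies within the Antennapedia complex, between the Hox genes lab (labial) and pb (proboscipedia), both of which had a region over them in each list. Ccp84Ag stood at the lab end, 2060 bp from the nearest region of the combined list, 2119 bp from that of replicate 1 and 2072 bp from that of replicate 2. It was thus just outside the 2 kb limit. Along the array the distance grew, to 4.93 kb at Ccp84Af, 6.22 kb at Ccp84Ae, 8.06 kb at Ccp84Ad, 10.5 kb at Ccp84Ac, 17.3 kb at Ccp84Ab and 18.1 kb at Ccp84Aa in the combined list. The stretch without regions, at chr3R:2510391-2548708, was 38.3 kb long, and it measured 38.5 kb and 38.7 kb in the replicates. Besides the 7 genes it held a single long non-coding RNA gene entirely.

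The regions at the lab edge of this stretch scored high. The one at chr3R:2487466-2510390 was 22925 bp wide with a score of 1.26 in the combined list. The region at this edge scored 1.73 in replicate 1 and 1.82 in replicate 2. Edg84A, a cuticle protein gene of the CPR family that does not carry the Ccp84A name, lies 1571 bp from Ccp84Ag. The region at this edge reached over only part of Edg84A and ended inside the gene in each list. Of the window of Edg84A 47.2% was covered in the combined list, 45.9% in replicate 1 and 46.9% in replicate 2.

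**Figure D3:**
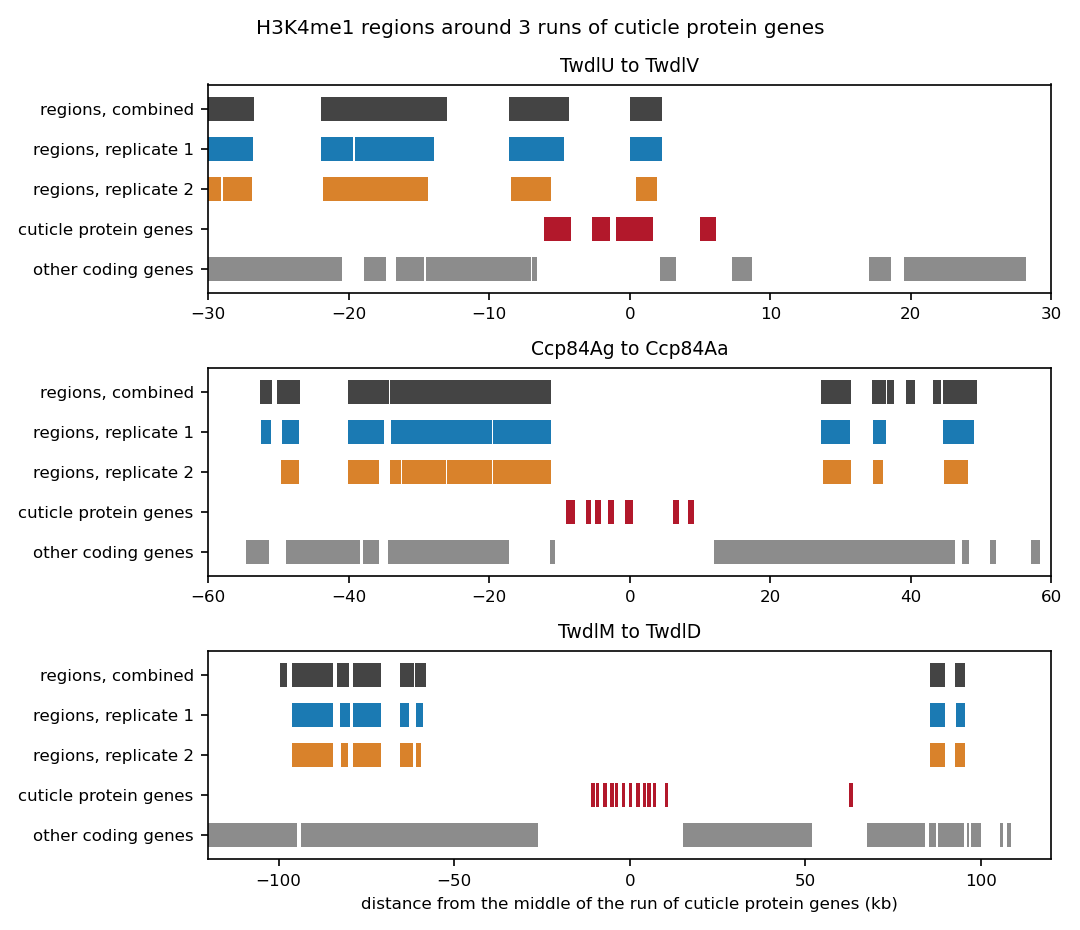
H3K4me1 regions in the combined, replicate 1 and replicate 2 lists around the 3 runs of 3 or more cuticle protein genes, with the cuticle protein genes and other protein-coding genes as boxes to scale; the x axis is the distance from the middle of the run in kb and its range differs between panels. Regions overlap the run from TwdlU to TwdlV, while the runs from Ccp84Ag to Ccp84Aa and from TwdlM to TwdlD lie in stretches of 38.3 and 143 kb without combined regions.

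The remaining unmarked genes were spread over 8 places. TwdlC and TwdlT lay in a single stretch of 78.5 kb without combined regions on 3R, which held 14 protein-coding genes. TwdlT was 17.9 kb, 18.1 kb and 18.3 kb from the nearest region in the 3 lists. TwdlC was 4.42 kb and 4.40 kb away in the combined list and replicate 1 but 23.6 kb away in replicate 2. Close by, Cpr97Ea and Cpr97Eb formed a pair, at 2322 bp and 8.90 kb from the nearest combined region. Cpr92F was at 4.18 kb in the combined list, from a region of 1228 bp, and at 10.5 kb and 10.3 kb in the replicates. Cpr92A was 11.1 kb, 11.3 kb and 11.4 kb away. Its neighbour Dys, the dystrophin gene 214 bp from it, is 136204 bp long and had a region over it in each list. On 2L, Cpr23B lay 6.54 kb, Cpr30B 7.69 kb and Cpr30F 2588 bp from the nearest combined region.

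The surroundings of the runs were then compared. The 2 nearest other protein-coding genes on each side of every run came to 66 genes. Of these 39 (59.1%) were marked in the combined list, 35 (53.0%) in replicate 1 and 30 (45.5%) in replicate 2. In each list this share was higher than that of the cuticle protein genes and lower than that of all genes. The 66 genes were not matched for length and ran up to 136204 bp, at Dys. They also held Edg84A and Tb, cuticle protein genes outside the naming rule. The difference was not tested.

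Other genes listed for cuticle formation on the same arms were counted by the same rule. Of 10 other structural cuticle protein genes 5 were marked in the combined list, 4 in replicate 1 and 3 in replicate 2. The share of length-matched genes was 72.4%, 69.4% and 67.3% in these lists. The structural genes marked in all lists were Edg84A, Pcp and Gasp. Pcp, a pupal cuticle protein gene nested in an intron of the purine synthesis gene Gart, had 52.2% of its window covered in replicate 1 and 47.7% in replicate 2. Gasp, which encodes a chitin-binding protein of the tracheal cuticle, had 12.03% and 4.36% covered. Acp1 was marked in the combined list alone and Edg91 in the combined list and replicate 1. The 3 Vajk genes, Crys and obst-E had no region in any list, with Vajk3 at 28.4 kb, Vajk2 at 26.3 kb, Vajk1 at 14.5 kb, Crys at 7.22 kb and obst-E at 5.21 kb from the nearest combined region.

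Lists of enzyme and regulator genes had higher marked shares. Of 6 genes listed for chitin synthesis and assembly 5 were marked in each list. The share of length-matched genes was 86.9% in the combined list, 84.1% in replicate 1 and 81.8% in replicate 2. Among the 5 marked genes was mmy, which encodes the enzyme that makes the activated sugar for chitin. It had 97.4% of its window covered in replicate 1 and 95.0% in replicate 2. The chitin synthase gene kkv had 41.4% and 54.1%, the chitin deacetylase-like gene Cda5 38.9% and 27.8%, and the chitinase gene Cht5 15.7% and 14.6%. The list also held dsf, a nuclear receptor gene with no such role, at 16.5% and 24.4%. At most 4 of the 5 marked genes thus belong to the theme, with the chitinase gene Cht5 counted among them. The gene knk, needed to organise chitin, was unmarked in all lists, at 3.42 kb from the nearest combined region. A further 7 of the 13 listed genes were not found on 2L or 3R under the listed symbol.

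Of 11 genes for sclerotization and pigment 9 were marked in the combined list, 9 in replicate 1 and 7 in replicate 2. The share of length-matched genes was 81.1%, 78.5% and 76.5% in these lists. The dopa decarboxylase gene Ddc had 54.3% of its window covered in replicate 1 and 56.7% in replicate 2, and its neighbour amd had 48.9% and 49.5%. In the yellow family yellow-e3 had 100% and 99.9%, yellow-e2 68.7% and 63.8%, yellow-c 44.0% and 43.7%, yellow-f2 37.7% and 38.8%, and yellow-f 3.88% and 4.95%. The highest scores of yellow-e3 and yellow-e2 were equal in each list, as were those of yellow-f2 and yellow-f. Each of these pairs may thus share a region, and the listed genes were not grouped into runs. The genes b and yellow-b were marked in the combined list and replicate 1 but not in replicate 2. The genes e (ebony) and yellow-e were unmarked in all lists, at 3.45 kb and 2.32 kb from the nearest combined region.

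All 6 transcription factor genes listed as regulators were marked in the combined list and replicate 1, and 5 in replicate 2. The share of length-matched genes was 88.6% in the combined list, 85.5% in replicate 1 and 83.2% in replicate 2. The 6 genes are long, which the matching takes into account. Whether each of them acts on cuticle genes was not examined. The gene ttk (tramtrack) had 83.5% of its window covered in replicate 1 and 85.3% in replicate 2, and bowl had 82.9% and 83.2%. Hr39 had 71.8% and 71.7%, srp (the GATA factor gene serpent) 69.6% and 63.0%, and Hr38 28.4% and 31.4%. Eip93F was the exception in replicate 2, with 2.51% covered in replicate 1. The marked shares of these enzyme and regulator lists stood nearer to their length-matched levels than those of the Cpr, Ccp84A and Twdl genes did. The lists are small, and no difference between them was tested.

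**Figure D4:**
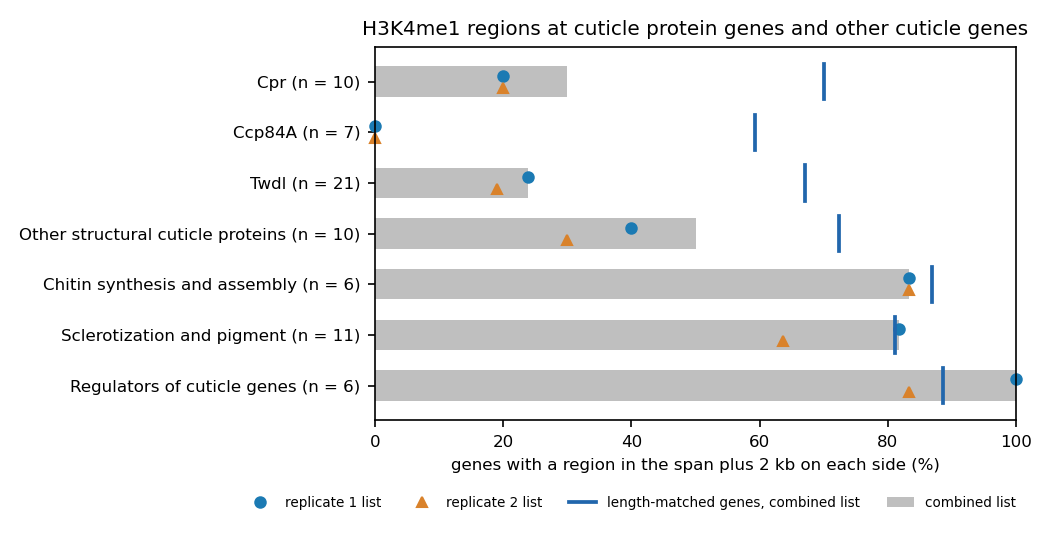
Share of genes with an H3K4me1 region in the span plus 2 kb on each side (x axis, %), for the 3 families of cuticle protein genes and 4 lists of other cuticle genes on 2L and 3R (number of genes in parentheses). Grey bars are the combined list, circles and triangles the replicate 1 and 2 lists, and blue ticks length-matched genes in the combined list; the Cpr, Ccp84A and Twdl bars, at 3 of 10, 0 of 7 and 5 of 21 genes, end far below their ticks.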

How the data were processed

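H3K4me1 regions from 2 ChIP libraries of 14 to 16 h embryos were used. Bowtie 0.12.7 was used, per the submitters' processing notes, and positions are on FlyBase release 5, per the file headers. How regions were called and how the input was used is not stated. Replicate numbers came from the sample titles. The deposited score was taken as log2, since score differences were logarithms of ratios of whole numbers (denominators up to 20000, relative tolerance 2e-13) in base 2 for 8167 of 8219 combined, 7577 of 7601 replicate 1 and 7401 of 7401 replicate 2 regions, against at most 25 in base e or 10. The 1 record of depletion was left out.

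Gene spans came from a RefSeq table on release 6. Positions were taken as equal on 2L and as release 6 minus 4174278 on 3R, and 32 genes outside the release 5 arms were left out. As a check, 45.0% of ends of protein-coding genes on 2L and 50.1% on 3R fell in combined regions, against at most 44.9% and 49.7% at 14 shifts of 0.5 to 50 kb either way. Errors under about 1 kb would not show. The table gives no strand, so start sites were not placed.

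Distances run between the nearest bases of gene span and region. Other genes were weighted over 10 length classes. The overlap step was tested on simulated regions placed inside 200 of 7702 genes, and 100% of these 200 were found. Such regions do not test the 2 kb on each side. With these 2 kb included, a pairwise search gave the same call for 7702 of 7702 genes. Python 3.11.15, pandas 2.3.3 and numpy 2.4.6 were used. No p-value was computed. Named by rule were all genes of runs of 3 or more, those with the highest coverage and scores, the farthest, those whose lists differ, and other cuticle genes marked in all lists. Others were named after their values were seen. The genes, lists and rules were chosen with earlier results of these data known, and the comparison with neighbouring genes after the values were seen.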

Additional observations from a re-analysis of the deposited data

How the results depend on the processing

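Cuticle protein genes were marked less often than length-matched genes under all 14 alternatives tried for that difference, which ranged from -50.9 to -22.5 percentage points around -45.4. It was -47.6 for the span alone, -34.8 with 5 kb, -29.4 with 10 kb, -22.5 with 20 kb, -43.3 when 50% of the window had to be covered, -43.5 for combined regions found in both replicates, -50.9 without length matching, -47.4 against protein-coding genes only, and -45.9 to -45.3 with 1 replicate left out. Without TwdlU it was -47.3 and without the 12 genes from TwdlM to TwdlD it was -37.5, with 8 of 26 genes marked; these, the count of 6 of 17 runs, the windows of 10 and 20 kb and the Twdl median without the 12 genes (1.45 kb against 48.6 kb) were chosen after seeing the data. The count of marked genes, 8, was 3 for the span alone, 15 with 5 kb, 20 with 10 kb and 25 with 20 kb. It was 2 at 50% covered, 3 among the top 50% of regions by score, and 6 to 7 with 1 replicate left out. In the top 50% the difference from length-matched genes was -45.5 points, so their marked share fell as well. The mean covered share of 7.70% was 4.70% for the span alone, 10.4% with 5 kb, 6.06% for regions found in both replicates, 2.69% in the top 50% by score, 10.8% over the union of windows, 11.3% without the 12 genes, and 4.33 to 6.05% with 1 replicate left out. The planned count of start sites in regions and the motif search were not run, for want of strand and sequence. No paired analysis was possible because the lists analysed here come from the ChIP libraries alone, so there was no other group to pair them with. Depth is unknown, so weak regions cannot be weighed by reads.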
